A study of Mus musculus with 6 samples.

Results

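The chemokine genes described here are 9 ligand genes known from activated T cells, Ccl1, Ccl3, Ccl4, Ccl5, Ccl20, Xcl1, Cxcl3, Cxcl10 and Cxcl16, taken by symbol from a table of 24421 mouse genes. All 9 were in the table. Their RNA was measured in wild-type mouse primary T cells that were isolated from spleen as naive CD4 cells and driven towards Th17, the helper T cell state that secretes interleukin 17. Cultures were kept in IMDM with 10% fetal bovine serum at 5% CO2 with 10 nM pemafibrate, a drug that selectively activates the lipid-sensing receptor PPARalpha, or with vehicle until day 2, and were then fed for 2 days with the same medium. The vehicle group is the samples numbered 3, 4 and 7 and the pemafibrate group those numbered 3, 7 and 8, 3 samples each. Strain and age are not stated in the labels, nor whether the samples of a group are separate cultures or animals, and p-values therefore describe the spread between these samples only, which may be technical.

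Chemokines are small secreted proteins that guide migrating cells through G protein-coupled receptors, and they are grouped as CC, CXC and XC ligands by the spacing of cysteines near the amino terminus. T cells make many of them after antigen receptor stimulation. CCL20 is the chemokine most closely tied to Th17 cells, which also carry its receptor CCR6, while CCL3, CCL4, CCL5 and XCL1 are best known from cytotoxic and type 1 responses. CXCL10 is induced by interferons, and NF-kappaB drives many chemokine genes.

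In these Th17 cultures, 3 of the 9 genes carried nearly all of the chemokine RNA in both groups: Ccl20, Ccl4 and Ccl3. Xcl1 followed at a lower level, Cxcl10, Cxcl3, Ccl5 and Cxcl16 were low, and Ccl1 was at the limit of detection. No member passed the limma test between pemafibrate and vehicle. In the authors' deposited comparison Xcl1 had an adjusted p under 0.05, as did 1.19% of the genes listed there. The largest difference among the tested members was that of Xcl1, with 4.99 ± 1.24 RPKM in vehicle and 8.30 ± 1.84 RPKM in pemafibrate (mean ± SD, n = 3 each). RPKM scales reads to transcript length and to library size, so that values can be compared between genes as far as the lengths hold. The lengths behind the deposited values were 802 bases for Ccl20 and 1100 for Cxcl10, against GENCODE exon totals of 1421 and 2252. For Ccl4 both were 660 bases.

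The bases before the transcription start of 4 members are printed because these genes represent the range of behaviour in the cultures: Ccl20 was the highest member, Xcl1 had the largest difference between the groups, Cxcl10 varied within both groups, and Ccl1 was hardly detected. The sequences are those of RefSeq for the build GRCm38.p6, cover the 250 bases before the start, and are written 5′ to 3′ on the gene's own strand. Capitals mark every match to the NF-kappaB consensus, to the AP-1 motif TGANTCA and to the interferon response element (GAAA, any pair of bases, GAAA), searched on both strands together with the TATA box letters TATAAA.
Ccl20, chr1:83116516-83116765, plus strand: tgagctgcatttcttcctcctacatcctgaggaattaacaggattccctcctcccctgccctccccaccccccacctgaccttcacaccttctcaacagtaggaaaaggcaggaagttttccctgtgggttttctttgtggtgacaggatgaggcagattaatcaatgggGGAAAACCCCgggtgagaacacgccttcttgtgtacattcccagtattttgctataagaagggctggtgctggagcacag
Xcl1, chr1:164935523-164935772, minus strand: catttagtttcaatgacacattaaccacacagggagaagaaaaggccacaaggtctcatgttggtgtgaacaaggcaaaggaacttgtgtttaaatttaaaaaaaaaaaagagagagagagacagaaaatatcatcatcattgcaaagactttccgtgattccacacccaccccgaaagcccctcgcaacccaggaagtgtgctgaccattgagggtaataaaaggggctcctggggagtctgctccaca
Cxcl10, chr5:92348890-92349139, minus strand: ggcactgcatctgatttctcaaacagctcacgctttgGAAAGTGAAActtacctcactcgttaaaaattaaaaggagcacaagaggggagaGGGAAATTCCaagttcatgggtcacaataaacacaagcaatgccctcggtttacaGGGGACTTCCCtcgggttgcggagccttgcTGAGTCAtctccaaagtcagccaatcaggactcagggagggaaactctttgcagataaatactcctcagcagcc
Ccl1, chr11:82179813-82180062, minus strand: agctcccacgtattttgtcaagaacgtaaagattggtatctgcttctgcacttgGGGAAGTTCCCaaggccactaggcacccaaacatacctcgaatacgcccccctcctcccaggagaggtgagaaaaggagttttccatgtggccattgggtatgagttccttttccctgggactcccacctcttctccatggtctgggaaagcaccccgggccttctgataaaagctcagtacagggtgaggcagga

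The NF-kappaB consensus was found at bases -80 to -71 of Ccl20, at -159 to -150 of Cxcl10 and, as overlapping matches, at -104 to -94 of Cxcl10 and at -196 to -186 of Ccl1, counted from the start. Cxcl10 also held the interferon response element GAAAGTGAAA at -213 to -204 and the AP-1 match TGAGTCA at -74 to -68. RefSeq promoters were at hand for 6 of the 9 members. Cxcl3 held overlapping NF-kappaB matches at -73 to -63 and the TATA box letters TATAAA at -30 to -25. Neither Ccl3 nor Xcl1 matched any of the 4 motifs in this window, and Ccl4, Ccl5 and Cxcl16 were not searched. Of 32851 mouse promoter windows of the same length, 7.25% held the NF-kappaB consensus, 6.75% the AP-1 motif, 2.98% the interferon response element and 12.4% the TATA box letters. A match describes letters and is not a measured binding site. The consensus stood before genes at opposite ends of the range of levels, Ccl20 and Ccl1.

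Of the 9 genes, 7 reached a mean of 0.5 RPKM over the 6 samples and were tested, together with all other genes above that level, 11360 in all. Cxcl16 and Ccl1 did not reach it. With limma on log2(RPKM + 0.5), 0 of the 7 tested members passed a Benjamini-Hochberg adjusted p of 0.05, where 0.352% of all tested genes did. At an unadjusted p under 0.05 there were 3 members (Xcl1, Ccl3 and Ccl4), against 9.67% of all tested genes, and voom on recovered reads also called 0 of the 7 members it tested (Cxcl16 in place of Ccl5), with 1.25% of genes called. The groups did not overlap in 2 of the 7 (Xcl1 and Ccl3), against 15.0% of all tested genes. The fitted differences of pemafibrate minus vehicle were above 0 in 3 members and below 0 in 4, with a median of -0.0062 on the log2 scale, beside 0.0052 over all tested genes. In the authors' deposited table, 1 of the 9, Xcl1, had an adjusted p under 0.05, as did 1.19% of the genes listed there. No alternative processing called a member with limma or voom.

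**Figure D1:**
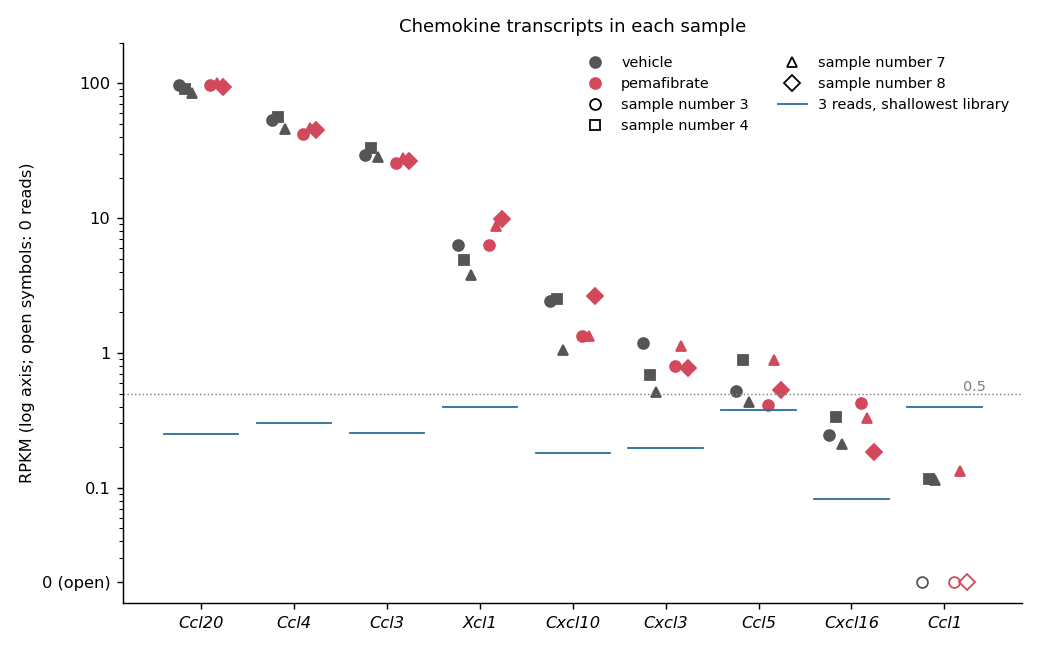
RPKM of the 9 chemokine genes in each sample on a log axis, ordered by level, with open symbols for samples without a read and a short line for the RPKM that 3 reads would give in the shallowest library. Ccl20, Ccl4 and Ccl3 lie between 25.4 and 101 RPKM in every sample, and Ccl1 lies below the line of 3 reads throughout.

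Ccl20 (chromosome 1, 83116766 to 83119167, GRCm38), the ligand of CCR6, was the most abundant chemokine transcript. It had 96.8, 90.6 and 85.3 RPKM in vehicle 3, 4 and 7, and 96.8, 101 and 93.5 RPKM in pemafibrate 3, 7 and 8, on 1184 to 1422 reads per library. The groups overlapped, and 90.9 ± 5.76 RPKM in vehicle stood beside 96.9 ± 3.49 RPKM in pemafibrate. The log2 difference was 0.09 ± 0.05 (SE), with a 95% interval from -0.03 to 0.22 and a limma adjusted p of 0.677. By its mean level Ccl20 ranked 854 of the 24421 genes.

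Ccl3 and Ccl4, the genes of macrophage inflammatory proteins 1 alpha and 1 beta, lie next to each other on chromosome 11 in opposite directions (Ccl3 from 83647843 to 83649378, Ccl4 from 83648624 to 83664683, GRCm38). Both proteins attract activated T cells and monocytes; CCL3 also binds CCR1. Ccl4 had 53.8, 56.4 and 45.5 RPKM in vehicle 3, 4 and 7 and 42.3, 47.0 and 45.1 RPKM in pemafibrate 3, 7 and 8. Vehicle 7 lay with the pemafibrate samples and the other vehicle samples lay above them. Ccl3 had 29.6, 33.0 and 28.5 RPKM in the vehicle samples and 25.4, 28.1 and 26.5 RPKM in the pemafibrate samples, in the same order of numbers. Its groups did not overlap, though vehicle 7 and pemafibrate 7 lay close together.

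Neither of the pair passed the test. Ccl4 went from 51.9 ± 5.66 RPKM in vehicle to 44.8 ± 2.38 RPKM in pemafibrate, with a log2 difference of -0.21 ± 0.08 (95% interval -0.39 to -0.02, limma adjusted p = 0.457). Ccl3 had 30.3 ± 2.34 RPKM with vehicle and 26.7 ± 1.32 RPKM with the drug, with a log2 difference of -0.18 ± 0.06 (95% interval -0.33 to -0.03, limma adjusted p = 0.401). The ratio of Ccl4 to Ccl3 within a sample was nearly the same in both groups, 1.71 ± 0.110 in vehicle and 1.68 ± 0.0202 in pemafibrate. In RefSeq the spans of these genes overlap on opposite strands, and the strand setting of the counting is not given in the sources at hand: some of their reads could be shared. In GENCODE they do not overlap. The length behind the deposited values was 660 bases for Ccl4, as in GENCODE, and 790 for Ccl3, against a GENCODE exon total of 766. Sharing of reads was not tested.

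Xcl1 (chromosome 1, 164931644 to 164935522, GRCm38) encodes lymphotactin, which acts through XCR1 on cross-presenting dendritic cells. It had 6.27, 4.89 and 3.80 RPKM in vehicle 3, 4 and 7, on 57, 42 and 33 reads. It had 6.31, 8.67 and 9.93 RPKM in pemafibrate 3, 7 and 8, on 58, 65 and 88 reads. Every pemafibrate sample lay above every vehicle sample, but vehicle 3 and pemafibrate 3 were almost equal. The log2 difference was 0.68 ± 0.20 (SE), with a 95% interval from 0.23 to 1.14. It did not pass with limma (adjusted p = 0.271) or with voom (adjusted p = 0.227), and over the 16 alternatives the adjusted p ran from 0.162 to 0.884. The authors' deposited table gives a log2 fold change of 0.72 with an adjusted p of 0.0471 for Xcl1. Counting error alone would give a coefficient of variation of 15.1% in vehicle and 11.9% in pemafibrate, and the observed values were 24.8% and 22.1%. The predicted gene Gm20743 lies across Xcl1 on the opposite strand in GENCODE.

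**Figure D2:**
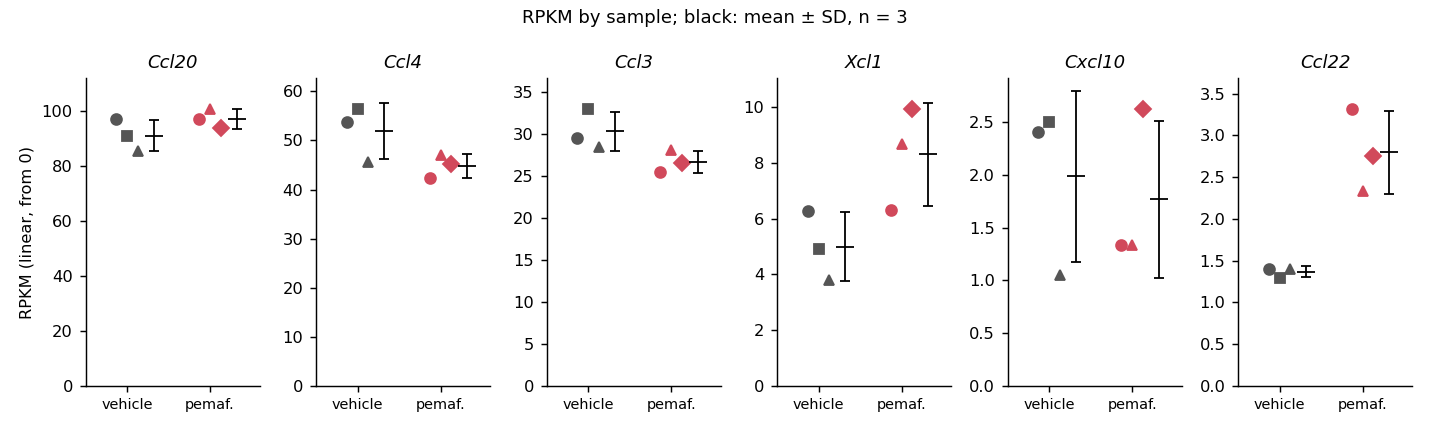
RPKM on a linear axis from 0 for 5 members and the further chemokine gene Ccl22, with 1 symbol per sample (circle number 3, square 4, triangle 7, diamond 8) and the mean ± SD beside each group of 3. The groups of Ccl20, Ccl4 and Cxcl10 overlap, those of Ccl3 and Xcl1 touch closely without overlap, and those of Ccl22 lie apart, 1.29 to 1.405 RPKM against 2.33 to 3.32 RPKM.

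Cxcl10 (chromosome 5, 92346638 to 92348889, GRCm38), an interferon-inducible ligand of CXCR3, had 2.41, 2.50 and 1.05 RPKM in vehicle 3, 4 and 7 and 1.34, 1.34 and 2.63 RPKM in pemafibrate 3, 7 and 8. Samples of both groups were high and samples of both groups were low. The mean was 1.99 ± 0.812 RPKM with vehicle and 1.77 ± 0.742 RPKM with the drug, a log2 difference of -0.12 ± 0.30 (95% interval -0.82 to 0.58, limma adjusted p = 0.946). The coefficients of variation, 40.9% and 42.0%, were well above the 16.2% and 17.3% that counting error gives for 20 to 51 reads. Leaving out 1 sample turned the sign in 4 of 6 cases. Art3 overlaps the gene on the opposite strand.

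Over the samples, Cxcl10 was high and low where Lyz2 was, the lysozyme gene of macrophages and other myeloid cells. Lyz2 was picked as the gene with the pattern most like Cxcl10 among 7870, so their likeness follows from the choice. Lyz2 had 7.68, 6.59 and 4.32 RPKM in vehicle 3, 4 and 7 and 4.60, 5.19 and 8.95 RPKM in pemafibrate 3, 7 and 8. The marker list for macrophages, monocytes and dendritic cells had 2 of its 8 genes above the level for testing, Lyz2 and Cd68, and summed to 9.55 to 12.5 RPKM in vehicle and 8.30 to 14.2 RPKM in pemafibrate. Cd68 had 3.63, 3.71 and 3.89 RPKM in vehicle and 2.76, 4.51 and 4.22 RPKM in pemafibrate, a different order of samples. No gene of the list was at 0 in all samples. The part of such cells in the Cxcl10 values was not tested. In RNA from whole cultures, fewer cells of a type and less RNA per cell cannot be told apart.

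Cxcl3 and Ccl5 were near the level for testing. Cxcl3 (chromosome 5, 90786101 to 90788093, GRCm38) encodes a neutrophil attractant that acts through CXCR2. It had 1.19, 0.690 and 0.511 RPKM in vehicle 3, 4 and 7 and 0.804, 1.12 and 0.779 RPKM in pemafibrate 3, 7 and 8, on 9 to 22 reads. The pemafibrate samples lay inside the range of the vehicle samples, with a log2 difference of 0.14 ± 0.21 (95% interval -0.35 to 0.62, limma adjusted p = 0.903). Ccl5 (chromosome 11, 83525778 to 83530518, GRCm38), the gene of RANTES and a marker of effector CD8 T cells and NK cells, had 0.520, 0.881 and 0.435 RPKM in vehicle and 0.411, 0.883 and 0.533 RPKM with the drug, on 4 to 8 reads. The ranges nearly coincided, with a log2 difference of -0.0062 ± 0.22, a 95% interval from -0.51 to 0.50 and a limma adjusted p of 0.996. The limma intervals are narrowed by the added 0.5 RPKM, which shrinks differences of low genes. Pooled reads scaled to library size gave wider exact 95% intervals for the ratio of pemafibrate to vehicle. They ran from 0.459 to 2.04 for Ccl5 and from 0.712 to 1.71 for Cxcl3, and cover counting error only. Differences within these wider intervals were not detectable at this depth.

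Beside the low Ccl5, the 4 CD8 T cell markers summed to 4.91 to 6.74 RPKM in vehicle and 5.65 to 7.08 RPKM in pemafibrate. Cd8b1 (mean levels 4.05 and 4.67 RPKM) and Cd8a (1.45 and 1.55 RPKM) carried nearly all of this sum. Eomes averaged 0.112 and 0.141 RPKM, and Gzmk had 1 read in vehicle 3 and none in the other samples. The 4 NK cell markers summed to at most 0.0615 RPKM in vehicle and were at 0 in pemafibrate, with Klra4 and Klra8 at 0 in all samples. The part of other cells in the Ccl5 reads was not tested.

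Cxcl16 and Ccl1 were too low for the test. Cxcl16 (chromosome 11, 70454389 to 70459984, GRCm38), a membrane-bound ligand of CXCR6 that dendritic cells and macrophages also make, had 0.248, 0.335 and 0.213 RPKM in vehicle 3, 4 and 7 and 0.424, 0.328 and 0.185 RPKM in pemafibrate 3, 7 and 8. Both the highest and the lowest sample were in the pemafibrate group. The pooled reads, scaled to library size, gave a ratio of pemafibrate to vehicle of 1.18, with an exact 95% interval of 0.727 to 1.93 that covers counting error only. Zmynd15 overlaps the gene on the opposite strand. Ccl1 (chromosome 11, 82176666 to 82179812, GRCm38), the ligand of CCR8, had 0, 1 and 1 reads in vehicle and 0, 1 and 0 reads in pemafibrate. For Ccl1, 3 reads would have been 0.324 to 0.398 RPKM, depending on the library, and every sample was below that. No fold is given for Ccl1.

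The order of levels was the same in both groups: Ccl20, Ccl4, Ccl3, Xcl1, Cxcl10, Cxcl3, Ccl5, Cxcl16 and Ccl1. Order and steps between genes depend on the gene lengths used for RPKM. In vehicle the ranges of the neighbours Cxcl10 and Cxcl3, and of Cxcl3 and Ccl5, overlapped. Within vehicle 3, 4 and 7, Cxcl10 lay above Cxcl3 each time (2.41, 2.50 and 1.05 against 1.19, 0.690 and 0.511 RPKM). The order of Cxcl3 and Ccl5 changed between vehicle samples. In pemafibrate the ranges of Cxcl3 and Ccl5 and of Ccl5 and Cxcl16 overlapped. There Cxcl3 lay above Ccl5 within every sample, and the order of Ccl5 and Cxcl16 changed between samples. No test was run between genes. In vehicle, the widest step among the 5 highest lay between Ccl3 and Xcl1, whose mean RPKM differed 6.08-fold. In pemafibrate, it lay between Xcl1 and Cxcl10, which differed 4.69-fold, while Ccl3 and Xcl1 differed 3.21-fold.

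Summed over the 9 members, chemokine RNA came to 190.9, 189.3 and 165.5 RPKM in vehicle 3, 4 and 7 and to 173.7, 188.0 and 179.2 RPKM in pemafibrate 3, 7 and 8. The groups overlapped, with means of 181.9 ± 14.2 and 180.3 ± 7.20 RPKM. Ccl20 made up 50.1 ± 1.95% of this sum in vehicle and 53.8 ± 1.78% in pemafibrate. Ccl4 made up 28.5 ± 1.16% and 24.8 ± 0.448%, Ccl3 16.7 ± 1.05% and 14.8 ± 0.144%, and Xcl1 2.72 ± 0.509% and 4.59 ± 0.954%. Shares of one sum move against each other, depend on the gene lengths used, and are given without a test.

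The receptors of these ligands were compared in the same fit. Of 24 chemokine receptor genes, 13 were tested, and limma called 3 higher and 2 lower in pemafibrate, against 0.132% and 0.220% of all tested genes. Ccr6, the receptor of CCL20, had 22.8, 22.2 and 24.0 RPKM in vehicle 3, 4 and 7 and 34.8, 32.5 and 32.6 RPKM in pemafibrate 3, 7 and 8, all above vehicle (log2 difference 0.53 ± 0.05, limma adjusted p = 0.0104). Within samples, the ratio of Ccl20 to Ccr6 RPKM was 4.25, 4.08 and 3.56 in vehicle and 2.78, 3.09 and 2.87 in pemafibrate, lower in all 3 pemafibrate samples. Because Ccl20 overlapped between the groups, this ratio mainly restates the Ccr6 difference. It was picked after its values had been seen and is given without a test. Ccr8, the receptor of CCL1, rose from 59.6 ± 4.24 RPKM with vehicle to 87.1 ± 3.19 RPKM with the drug (log2 difference 0.55 ± 0.06 at a limma adjusted p of 0.0147), while its ligand gene stayed at 1 read or none. Ccr4, the receptor of CCL22 and CCL17, rose from 112 ± 2.81 RPKM with vehicle to 143.5 ± 2.93 RPKM with the drug (log2 difference 0.35 ± 0.04 at a limma adjusted p of 0.0147). These 3 calls were absent without vehicle 3 and without pemafibrate 7, where limma called 0 receptors. In both cases 8 of 13 receptors had an unadjusted p under 0.05. Over all tested genes this held for 900 of 11375 without vehicle 3 and for 771 of 11376 without pemafibrate 7. In these fits limma called only 2 and 0 genes of any kind. Without vehicle 4 limma called 1 receptor higher and 2 lower, and without pemafibrate 8 it called 2 higher and 2 lower. Voom called 8 receptors, 3 higher and 5 lower, and 1.25% of all genes it tested.

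One of the lower calls was Cxcr4, the receptor of CXCL12, which fell from 59.7 ± 2.47 to 41.1 ± 1.18 RPKM. Cxcr3, Cxcr6 and Ccr1 did not pass with limma. Cxcr3, the receptor of CXCL10, had 5.09 ± 0.584 RPKM with vehicle and 6.22 ± 1.16 RPKM with the drug (log2 difference 0.26 ± 0.13 at a limma adjusted p of 0.613). Cxcr6, the receptor of CXCL16, had 13.0 ± 0.878 RPKM and 11.8 ± 1.77 RPKM (log2 difference -0.14 ± 0.11, limma adjusted p = 0.775), well above its ligand gene in every sample. Ccr1, a receptor of CCL3 and CCL5, had 0.917, 0.806 and 1.04 RPKM in vehicle and 0.289, 0.402 and 0.520 RPKM in pemafibrate, without overlap (log2 difference -0.66 ± 0.15, limma adjusted p = 0.171); voom gave an adjusted p of 0.0343. Ccr3, Cxcr2 and Xcr1 were too low for the test, with mean levels of 0.519, 0.213 and 0.255 RPKM in vehicle and 0.362, 0.281 and 0.232 RPKM in pemafibrate.

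**Figure D3:**
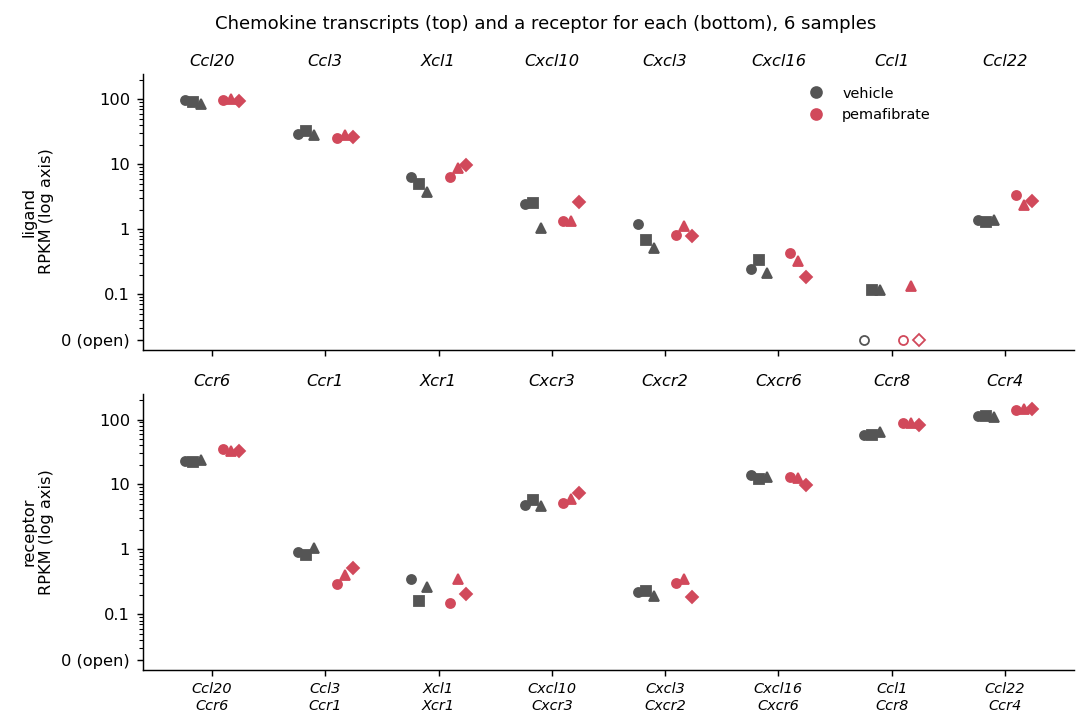
RPKM of chemokine genes (top row) and of a known receptor for each (bottom row) in the 6 samples, on log axes, with open symbols for samples without a read and the same symbol for a sample number as in the plot of single members. Ccl20 and Ccr6 are both well expressed, Xcl1 is present where Xcr1 is below 0.5 RPKM, Ccr8 is high where Ccl1 is at 1 read or none, and the pemafibrate samples lie above the vehicle samples in Ccr6, Ccr8 and Ccr4.

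**Figure D4:**
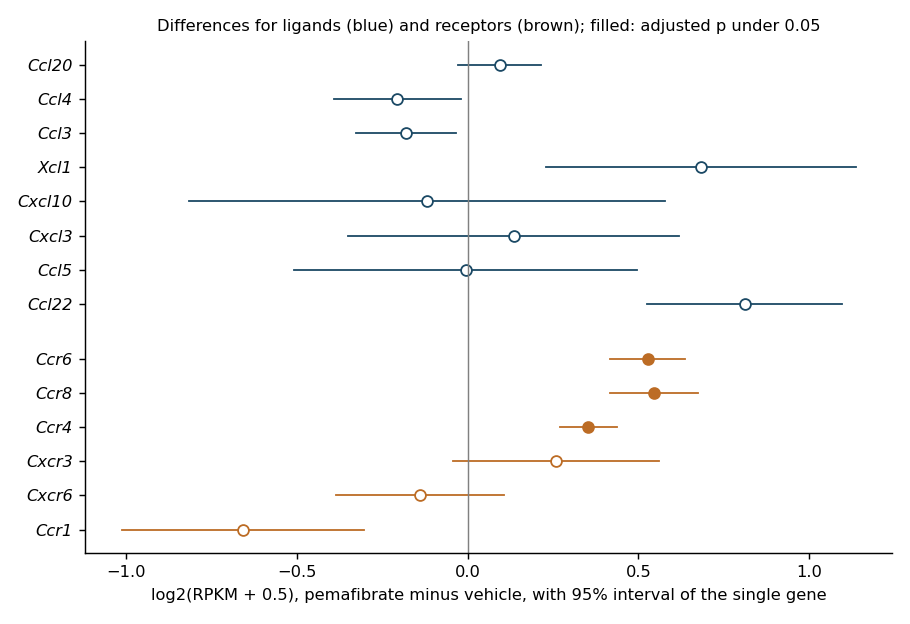
Log2 difference of pemafibrate minus vehicle with its 95% interval for the 7 tested members and Ccl22 (blue) and for receptors (brown), where filled points passed a limma adjusted p of 0.05. No ligand point is filled, and the intervals of Xcl1, Ccl22, Ccl3 and Ccl4 leave out 0 before adjustment.

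Of 32 further chemokine ligand genes, 12 were at 0 in all samples and 6 were tested. Limma called 0 of the 6, 1 of which (Ccl22) had an unadjusted p under 0.05. The median difference of the 6 was 0.07 on the log2 scale. Ccl22 (chromosome 8, 94745684 to 94751388, GRCm38), made by dendritic cells and by activated T cells and a ligand of CCR4, had 1.403, 1.29 and 1.405 RPKM in vehicle 3, 4 and 7 and 3.32, 2.33 and 2.75 RPKM in pemafibrate 3, 7 and 8. All pemafibrate samples lay above all vehicle samples, with a log2 difference of 0.81 ± 0.12 (95% interval 0.53 to 1.10). The limma adjusted p was 0.0540 and missed the threshold narrowly, voom gave 0.0148, and over the 16 alternatives the adjusted p ran from 0.0148 to 0.373, passing in 5. In the authors' deposited table, Ccl22 had a log2 fold change of 1.04 and an adjusted p of 0.000118. The values of Lyz2 and Cd68 given beside Cxcl10 overlapped between the groups, and the part of myeloid cells in the Ccl22 values was not tested.

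The other 5 tested ligand genes were low. Ccl25 had 2.66 ± 0.485 RPKM in vehicle and 2.91 ± 0.195 RPKM in pemafibrate, and Ccl6 had 2.13 ± 0.325 RPKM and 2.03 ± 0.224 RPKM. Ccl9 (0.907 and 0.929 RPKM), Ccl27a (0.734 and 0.872 RPKM) and the platelet factor gene Pf4 (0.839 and 0.327 RPKM, limma adjusted p = 0.556) were lower still.

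Transcription factors and signalling genes that act on chemokine genes showed no call with limma: 0 of 32 tested, of 34 listed, where 0.352% of all tested genes were called. An unadjusted p under 0.05 was held by 6 of the 32, and by 9.67% of all tested genes. Their median difference was -0.0089 on the log2 scale, with 15 above and 17 below 0. Nfkb1, the NF-kappaB subunit gene, had 163 ± 5.46 RPKM in vehicle and 168 ± 5.64 RPKM with the drug (limma adjusted p = 0.825). The smallest p was that of Irf8, an interferon regulatory factor gene, with 34.8 ± 2.76 RPKM with vehicle and 42.0 ± 1.31 RPKM with the drug (log2 difference 0.27 ± 0.06 at a limma adjusted p of 0.141); it was the only gene of this list that voom called (adjusted p = 0.0257). Irf7, the interferon regulatory factor gene induced by type 1 interferon, had 0.463 ± 0.0929 RPKM and 0.994 ± 0.208 RPKM (limma adjusted p = 0.198).

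After transcription, chemokine RNAs are short-lived and are cleared by proteins that bind AU-rich elements, and CXCL16 is shed from the membrane by ADAM10. Of 11 such decay and processing genes, all tested, limma and voom called 0, where they called 0.352% and 1.25% of all genes they tested. An unadjusted p under 0.05 was held by 3 of the 11, and by 9.67% of all tested genes. Zfp36l2, a decay factor gene, had 87.4 ± 4.56 RPKM with vehicle and 75.0 ± 4.81 RPKM with the drug (log2 difference -0.22 ± 0.06 at a limma adjusted p of 0.223). Adam10 had 34.8 ± 1.10 RPKM and 38.2 ± 1.75 RPKM (log2 difference 0.13 ± 0.05, limma adjusted p = 0.402), and Hnrnpd, which encodes the decay factor AUF1, 57.4 ± 0.970 RPKM and 53.5 ± 2.61 RPKM (limma adjusted p = 0.516).

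Of 15 cytokine genes that stimulated T cells turn on beside chemokines, all tested, limma called Il9 and Il22 higher and Il21 lower, where 0.352% of all tested genes were called, and 8 had an unadjusted p under 0.05, where 9.67% of all tested genes did. Voom did not call Il22 (adjusted p = 0.0599), and without pemafibrate 7 limma called none of the tested genes. The median difference of this list was 0.11 on the log2 scale. Tnf, with 36.8 ± 3.12 RPKM in vehicle and 38.1 ± 3.17 RPKM with the drug (limma adjusted p = 0.901), and Ifng, with 2.52 ± 0.119 RPKM and 2.75 ± 0.693 RPKM (limma adjusted p = 0.922), did not pass. Tnfsf11, the gene of RANKL, had 5.39 ± 0.785 RPKM with vehicle and 8.68 ± 1.02 RPKM with the drug (log2 difference 0.64 ± 0.12); its limma adjusted p was 0.0879 and that of voom 0.00898. Il17a (198 and 124 RPKM) and Il10 (40.7 and 27.5 RPKM) had lower levels with the drug. They missed the threshold with limma (adjusted p = 0.0717 and 0.105) and passed it with voom (adjusted p = 0.00186 and 0.00886), which called 2 genes of this list higher and 4 lower.

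For each tested member, the genes with the most similar pattern over the 6 samples were found as those with the smallest root mean square difference of log2(RPKM + 0.5), each gene centred on its mean, among the 7869 or 7870 genes averaging 5 RPKM or more. For Xcl1 these were Foxp3, the gene of the regulatory T cell factor, at 0.17, and Tnfsf11 at 0.21, where Xcl1 itself varied around its mean by 0.43. Foxp3 had 3.99, 4.20 and 3.39 RPKM in vehicle 3, 4 and 7 and 6.02, 7.47 and 8.69 RPKM in pemafibrate 3, 7 and 8. Like Xcl1 it was lowest in vehicle 7 and highest in pemafibrate 8. For Cxcl10 they were Lyz2 at 0.14 and the small nucleolar RNA gene Snora74a at 0.16, against 0.41 for Cxcl10 itself. For Ccl20 they were Btla at 0.015 and Sass6 at 0.018, for Ccl4 Man1a at 0.038 and Nfkbiz at 0.044, and for Ccl3 Mpp2 at 0.029. For Cxcl3 they were Msmo1 at 0.15 and Hdac8 at 0.16, and for Ccl5 Pias3 at 0.086 and Ppwd1 at 0.12. These distances describe 6 samples that share their libraries, and nothing is read from them about function or control.

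**Figure D5:**
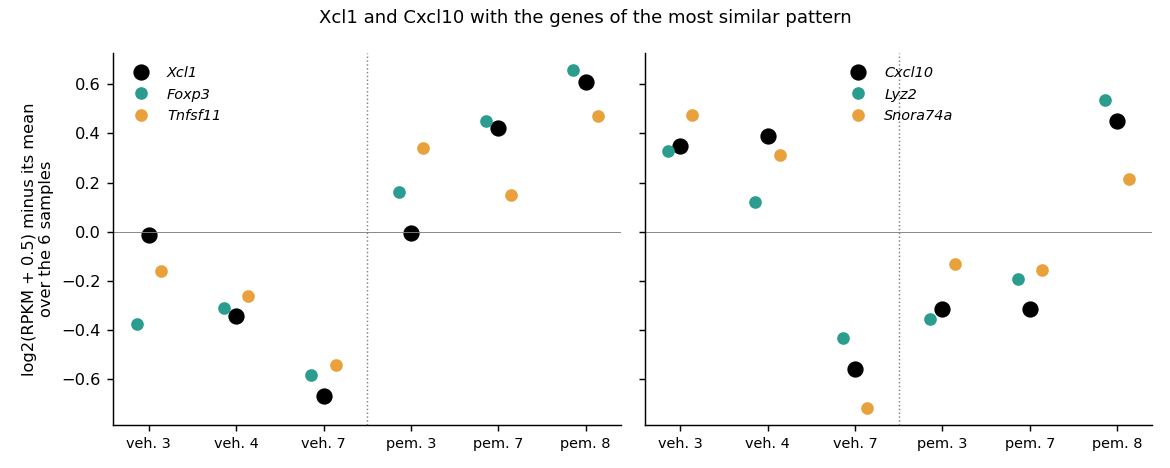
Log2(RPKM + 0.5) minus its mean over the 6 samples for Xcl1 with Foxp3 and Tnfsf11 (left) and for Cxcl10 with Lyz2 and Snora74a (right), 1 point per gene and sample. On the left vehicle samples are at or below 0 and pemafibrate samples from about 0 upwards, and on the right vehicle 3, vehicle 4 and pemafibrate 8 lie above 0 and the other samples below it.

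The libraries held 14935351 to 18322467 reads, as implied by the deposited values, and no pair within a group agreed within sampling noise (chi-square per degree of freedom 2.78 to 8.27). The labelled cell type could be checked on 9 T cell marker genes, which summed to 2066 to 2163 RPKM in vehicle and 2084 to 2172 RPKM in pemafibrate. The 5 Th17 markers summed to 1790 to 1987 RPKM in vehicle and 1339 to 1630 RPKM in pemafibrate, a sum carried mostly by Il17f. Of the 5, 4 had lower and 1 (Ccr6) higher levels in pemafibrate. The groups overlapped in none of the 5, and did not overlap in 15.0% of all tested genes. Limma called Ccr6 higher and Il23r lower, and voom called 1 higher and 3 lower. Of all genes they tested, limma called 0.352% and voom 1.25%. The part of this shift in the chemokine values was not tested. B cell markers summed to 5.18 to 5.92 RPKM and 5.19 to 6.23 RPKM. Neutrophil markers summed to 0.857 to 4.24 RPKM and 0.328 to 5.04 RPKM. Stromal and epithelial markers summed to 13.2 to 13.8 RPKM and 12.2 to 13.2 RPKM. This last sum was carried mostly by Pecam1, with mean levels of 12.6 RPKM in vehicle and 11.7 RPKM in pemafibrate. Col3a1 of the same list was at 0 in all samples.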

How the data were processed

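Stranded mRNA libraries were prepared from 1.0 µg of total RNA per sample, per the labels' protocols. Reads were handled with HISAT2 2.1.0, featureCounts 1.4.6, edgeR, Trimmomatic 0.35 and bcl2fastq on GRCm38, per the submitters' processing notes. Annotation and strand setting are not given in the sources used here. The authors deposited 1 table with RPKM for 24421 genes in 6 samples. Per the file headers, it also holds a p-value with its adjusted value and a log2 fold change between the groups, computed by the authors. The authors' deposited rank, of another kind, was not used.

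The members and gene lists were chosen with earlier results of these data known. Whole reads were recovered from the RPKM steps: 100% of 88935 nonzero values were whole within a relative tolerance of 1e-06, and where reads are few the smallest whole numbers with these ratios were taken. Genes averaging 0.5 RPKM or more were tested by limma 3.58.1 (R 4.3.3) on log2(RPKM + 0.5) (trended prior variance, no further scaling) with Benjamini-Hochberg adjustment at 0.05. This scale understates changes of low genes. Intervals of 95% for single genes are not adjusted. Voom was run on genes with a mean of at least 10 recovered reads. The procedure was tested on simulated counts with the same dispersion of 0.005 for every gene. It recovered 12% of 1.25-fold, 84% of 1.5-fold and 98% of 2-fold changes. Of its 162 calls, 16 fell on unchanged genes. These shares do not carry over to genes that spread more between samples, such as Xcl1 and Cxcl10, whose recovery was not simulated. Changes as small as those of Ccl3 and Ccl4 would mostly be missed.

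The named genes are all members, called genes of the lists, receptors of the members, other ligands above 0.5 RPKM, up to 3 further genes per list by p, and 2 genes most alike per member. A few genes taken by the rule are not reported here. Ccl22 follows the rule; Nfkb1, Tnf, Ifng and marker genes were named for their role, and the Ccl20 ratios after their values were seen. Positions come from RefSeq for GRCm38 and overlaps also from GENCODE. Plots used matplotlib 3.10.9 (Python 3.11.15).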

Additional observations from a re-analysis of the deposited data

How the results depend on the processing

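Limma called 0 members under each of the 16 alternatives, the leave-one-out fits (0 to 0) included. Over all genes the count of 40 became 7 with no filter on low values, 140 with array weights, 148 with voom on recovered reads, and 0 to 25 when 1 sample was left out (0 without pemafibrate 7, where 771 genes had an unadjusted p under 0.05). The 5 receptor calls became 8 with voom and 0 to 5 when 1 sample was left out. Sample numbers 3 and 7 occur in both groups, but the labels do not say that they mark pairs, and they are not taken as such. Deviations of same-numbered samples correlated by 0.030 and -0.0083, and those of differently numbered samples by -0.220 to 0.199. With deviations taken within groups of 3 and so few shared numbers, this cannot decide whether samples are paired. With the number as a replicate block, limma called 0 of all genes (653 at an unadjusted p under 0.05), 0 receptors (8 unadjusted) and 0 members. Number 4 occurs only in vehicle and number 8 only in pemafibrate. The block fit therefore compares only samples 3 and 7 of each group. It leaves little to estimate the spread from, so its lack of calls decides nothing.

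Ccl3, Ccl4, Ccl20 and Xcl1 kept their sign under all 16 alternatives. Ccl5 changed sign with quantile normalization (0.0091), array weights (0.16) and the replicate block (0.20), and ran from -0.18 to 0.16 when 1 sample was left out. Leaving out 1 sample gave -0.028 to 0.34 for Cxcl3, below 0 without vehicle 7, and -0.43 to 0.047 for Cxcl10, above 0 without vehicle 3 (0.03), vehicle 4 (0.047), pemafibrate 3 (0.0083) or pemafibrate 7 (0.0085). The cause was not tested. A filter at 2 RPKM left out Ccl5, Cxcl3 and Cxcl10, and voom left out Ccl5. With 4 to 22 reads per library, depth limits what Ccl5 and Cxcl3 can show.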

Other observations

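Within samples, the vehicle samples 3, 4 and 7 had a ratio of Ccl20 to Ccl4 RPKM of 1.80, 1.61 and 1.87, and the pemafibrate samples 3, 7 and 8 had ratios of 2.29, 2.14 and 2.07. The groups did not overlap, with means of 1.76 ± 0.138 and 2.17 ± 0.111 (SD, n = 3 each). This ratio was picked after its values had been seen and is given without a test. Of the monocyte and neutrophil attractants among the further ligands that were too low for the test, Ccl2 was at 2, 6 and 8 reads with vehicle and at 3, 0 and 2 reads with pemafibrate, and Cxcl2 was at 2, 5 and 3 reads against 0, 1 and 1 reads, in the same order of numbers. These counts are too few to compare the groups.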
